A study of Mus musculus with 8 samples.

Results

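Fibronectin, encoded by *Fn1*, and 9 integrin subunit genes, *Itga4*, *Itga5*, *Itga6*, *Itga8*, *Itgav*, *Itgb1*, *Itgb3*, *Itgb5* and *Itgb8*, were followed in the left and right heart fields of the mouse embryo. These 10 genes were taken by symbol, each Ensembl identifier being matched to the GENCODE vM21 annotation of GRCm38, from the 48526 genes of the count table. The libraries came from 4 Wild-type male C57bl6/J embryos, L29-3, L43-5, L46-8 and L49-3, all at stage E8.5f, and no embryo carried a mutation or received a treatment. Each heart field was dissected with the dorsal pericardial wall, from under the headfolds to the second somite, and was cut at the midline, which gave 4 left and 4 right libraries. According to the methods of the study, the heart itself and the back were taken away. The study asked which genes differ between the sides in a single embryo. The dissected tissue holds several cell types, so that fewer cells of a type and less RNA per cell cannot be told apart in these bulk libraries.

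Fibronectin is a secreted glycoprotein that cells assemble into fibrils by pulling on it through integrins, receptors made of an alpha and a beta chain. Integrin α5β1 and the αv integrins bind its RGD motif, α4β1 binds an alternatively spliced segment, and α8β1 binds the RGD motif of several matrix proteins, among them nephronectin. Integrin α6, which pairs with β1 or β4, is by contrast a laminin receptor. Mouse embryos without fibronectin or α5 fail to form a normal heart and vasculature, and fibronectin is known as a component of the matrix around cardiac precursors. Reads were counted per gene, so that splice forms of *Fn1* cannot be told apart here.

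After the removal of duplicate reads, the total count per library ranged from 1147446 to 3520753. A count of 0 has a one-sided 95% upper limit of about 3 counts, which covers counting error only. These 3 counts stood for 0.844 to 2.64 CPM (reads scaled to a common library size) depending on the library. *Lefty2*, a left-sided target of NODAL signaling used as a check of the side labels, had 65, 66, 129 and 197 reads on the left and 1, 0, 0 and 7 reads on the right. All 10 markers of the second heart field had reads, and their summed level ranged from 404 to 640 CPM. Markers of tissues next to the heart field, such as the neural tube, surface ectoderm and foregut, were detected too. Embryo L49-3 stood apart by the lowest summed cardiomyocyte markers on its left side, 442 CPM, against 1231 to 3554 CPM in the other 7 libraries. A gene was tested when its DESeq2-normalised read count reached 20 in at least 4 of the 8 libraries, which 9744 genes did. Of the 10 genes, 8 were tested, whereas *Itga4* and *Itgb8* reached 20 in 0 libraries.

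**Figure D1:**
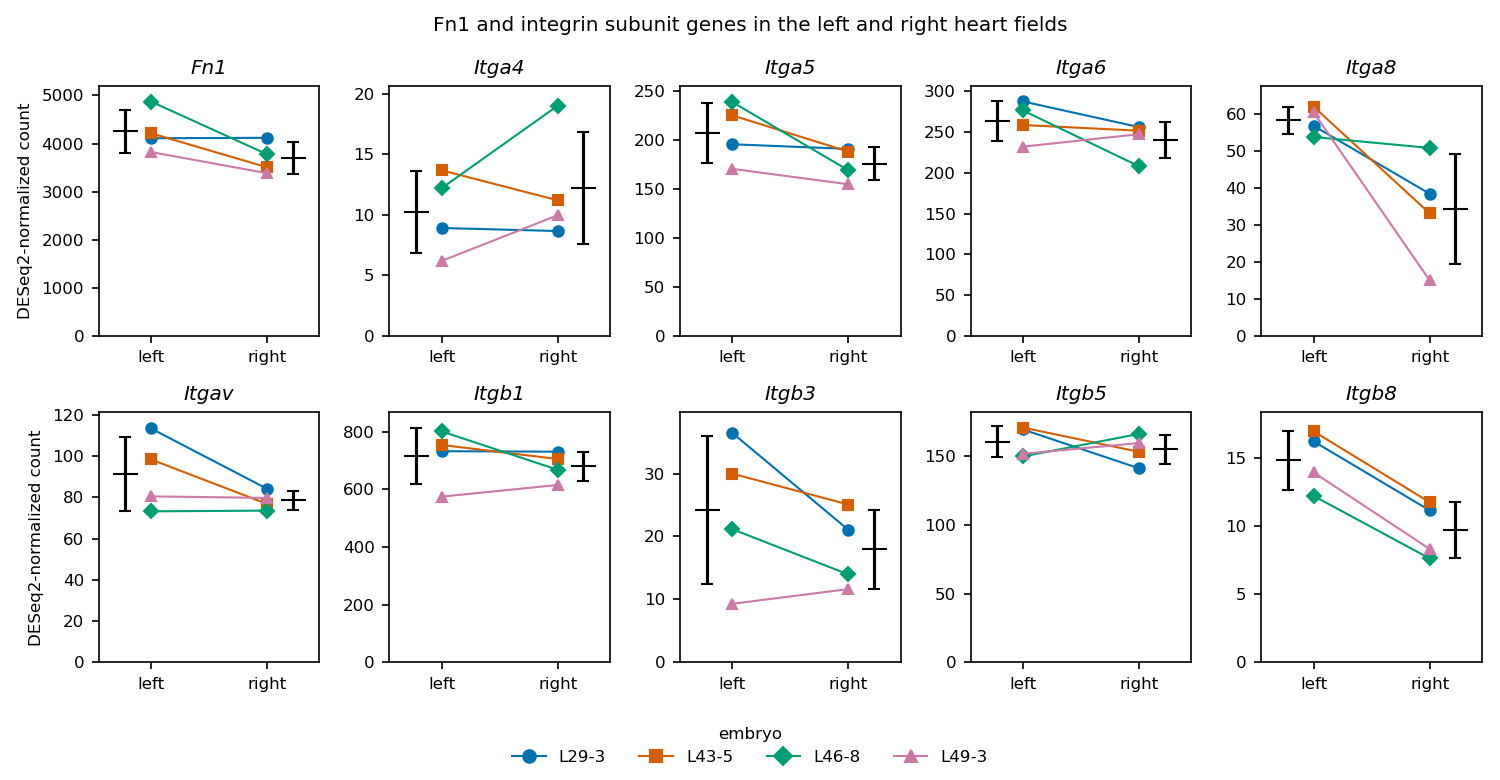
DESeq2-normalised read counts (vertical axes, linear, from 0) of the 10 genes in the left and right heart field of 4 embryos, with a line joining the sides of each embryo and with the mean and SD of each side (n = 4) in black. The sides do not overlap for *Itga8* and *Itgb8*, and *Fn1* lies between 3382 and 4874 in all 8 libraries.

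The fitted changes of the 8 genes tested among *Fn1* and its integrins all pointed to the left, most of them by little. Only *Itga8* passed the threshold of the study, namely a fold change of 1.2 or more together with an unadjusted p not above 0.05. The fitted change was towards the left for 8 of 8 genes, from 0.06 for *Itgb5* to 0.75 for *Itga8* on the log2 scale, with a median of 0.21, against 48.6% of all genes tested and a median of -0.00 over them. The threshold of the study was passed by 1 of the 8, against 3.05% of all genes tested. An unadjusted p of at most 0.05 was found for 3 of 8, *Fn1*, *Itga5* and *Itga8*, against 4.36% of all genes tested. With Benjamini-Hochberg adjustment over all genes, edgeR's quasi-likelihood test called 0 of the 8, the smallest adjusted p being 0.987. DESeq2 and limma-voom also called 0, and in the whole table the adjusted p of edgeR was under 0.05 for a single gene, *Lefty2* (0.0103% of genes). After TMM normalisation, a higher value on the left in every embryo was seen for the same 3 genes, against 6.26% of all genes tested. These genes are not independent of each other, and no test was made of the group as a whole.

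*Fn1*, at chromosome 1, 71585520 to 71653200 on the minus strand, had DESeq2-normalised read counts of 4109 (left) and 4119 (right) in embryo L29-3, 4214 against 3505 in L43-5, 4874 against 3775 in L46-8, and 3823 against 3382 in L49-3. The sides were nearly equal in L29-3 and the left was higher in the other 3 embryos, although the ranges of the 4 left and the 4 right libraries overlapped. The left mean was 4255 ± 444 and the right mean 3695 ± 327 (SD, n = 4). This is a log2 fold change of 0.20 (SE 0.0631, 95% confidence interval 0.06 to 0.34), a fold of 1.15 that is under the fold threshold. For *Fn1*, edgeR's quasi-likelihood test gave an unadjusted p of 0.00829 and, with Benjamini-Hochberg adjustment, an adjusted p of 0.987. Single embryos had a log2 ratio of left to right of 0.00 (L29-3), 0.27 (L43-5), 0.36 (L46-8) and 0.17 (L49-3), after TMM normalisation with a pseudocount of 0.5 CPM. The tiny difference in L29-3 takes the opposite sign on the DESeq2 scale, so that *Fn1* is higher on the left in all 4 embryos only after TMM normalisation. In 2 alternatives the standing of *Fn1* changed. In a fit of the 23873 genes with at least 1 count, with no filter, its adjusted p was 0.00437 in edgeR, and without L29-3 its log2 fold change of 0.27 passed the threshold of the study. With no filter its unadjusted edgeR p, 4.03e-06, was that of a normal distribution for the fold change over its SE, 0.0463. The spread of *Fn1* itself between the embryos therefore has little weight in that adjusted p. An exact sign-flip test over 4 embryos cannot go below a two-sided p of 0.125, which is what *Fn1*, *Itga5*, *Itga8* and *Itgb8* each gave.

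The summed markers of the neural tube, a list picked out of 10 after the values were seen, moved against *Fn1* between embryos. The back of the embryo was removed at dissection according to the methods of the study. The left and right sums of these markers were 303 against 221 CPM in L29-3, 233 against 332 CPM in L43-5, 162 against 325 CPM in L46-8, and 411 against 487 CPM in L49-3. The log2 ratio of these sums was 0.45, -0.51, -1.01 and -0.25 in the same order, so that the embryos ranked by this ratio stood in the reverse of their order by *Fn1* ratio. All 10 markers of the list had reads and 7 were tested. Of these 7, 0 were higher on the left, against 48.6% of all genes tested. The threshold of the study was passed by 2 as lower on the left, against 3.05% of all genes tested in either direction. Paraxial mesoderm markers gave 0.14, -0.52, -0.32 and -0.03, with the same embryo highest and another lowest. The part of these tissues in the *Fn1* and *Itga5* differences was not tested. *Itga5* ratios follow the same order of embryos as those of *Fn1*.

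**Figure D2:**
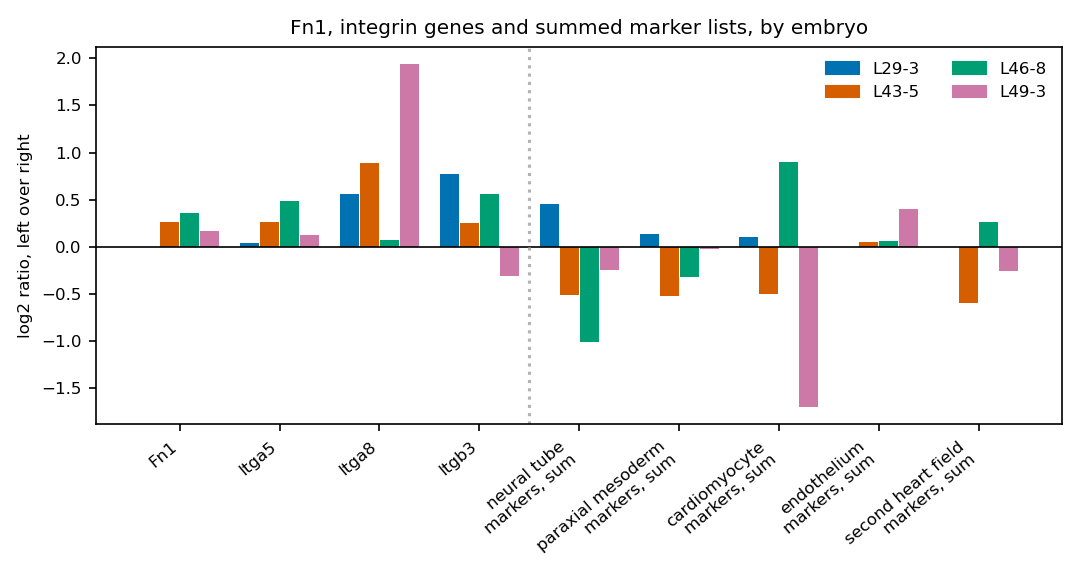
Log2 ratio of left to right (vertical axis) in each of the 4 embryos (bar colour) for *Fn1*, *Itga5*, *Itga8* and *Itgb3* and for the summed CPM of 5 marker lists. L46-8 has the largest *Fn1* ratio, 0.36, and the lowest neural tube ratio, -1.01, whereas L29-3 has 0.00 and 0.45.

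*Itga5*, at chromosome 15, 103344286 to 103366763 on the minus strand, encodes the alpha chain of α5β1, the main receptor for fibrillar fibronectin. Normalised read counts were 195 (left) and 191 (right) in embryo L29-3, 225 against 188 in L43-5, 238 against 169 in L46-8, and 170.3 against 155 in L49-3. The left was higher in all 4 embryos, by little in L29-3, and the ranges of the sides overlapped. The left mean was 207 ± 30.5 and the right mean 175 ± 17.0 (SD, n = 4), which is 0.24 as a log2 fold change (SE 0.0974, 95% confidence interval 0.03 to 0.45). In edgeR the p was 0.031 unadjusted and 0.987 with the Benjamini-Hochberg adjustment, and the fold of 1.18 is under the fold threshold. Its call at an unadjusted p of 0.05 rests on single embryos, since the p was 0.163 without L46-8 and 0.0893 without L43-5, whereas without L29-3 the log2 fold change of 0.31 passed the threshold of the study.

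*Itga8*, at chromosome 2, 12106632 to 12301922 on the minus strand, encodes the alpha chain of α8β1. It had normalised read counts of 56.7 (left) and 38.4 (right) in embryo L29-3, 61.9 against 33.1 in L43-5, 53.7 against 50.8 in L46-8, and 60.4 against 15.0 in L49-3. The 4 left libraries were close to each other and all above the 4 right ones, which varied widely. Sides without overlap were found in 2.51% of the genes tested. The left mean was 58.2 ± 3.7 and the right mean 34.3 ± 14.9 (SD, n = 4), which is 0.75 as a log2 fold change (SE 0.24, 95% confidence interval 0.23 to 1.27) or a fold of 1.68, while edgeR's quasi-likelihood test gave an unadjusted p of 0.00877, the adjusted p being 0.987. The ratio in single embryos ranged from 0.07 in L46-8 to 1.94 in L49-3 on the log2 scale, the latter with 9 reads on the right. The summed cardiomyocyte markers had log2 ratios of 0.10 (L29-3), -0.50 (L43-5), 0.90 (L46-8) and -1.70 (L49-3), which puts the embryos in the reverse of their order by *Itga8* ratio. All 9 markers of that list had reads and 8 were tested. Of these 8, 0 were higher on the left, against 48.6% of all genes tested. The threshold was passed by 0 in either direction, against 3.05% of all genes tested. This list was picked out of 10 after the values were seen, and its part in the *Itga8* difference was not tested. *Itga8* stayed past the threshold of the study without any single embryo, the log2 fold change being 0.54 without L49-3 and 0.996 without L46-8.

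None of 4 short motifs searched for was present upstream of both *Itga5* and *Itga8*, the integrin genes whose left-right difference had an unadjusted p of at most 0.05. The 250 bases before the start site of each are shown because these are the integrin genes on which the comparison of sides turns, from RefSeq on GRCm38.p6, with matches to the searched letters in capitals and read 5′ to 3′ on the strand of the gene. The *Itga8* stretch is chr2:12301945-12302194 and the *Itga5* stretch is chr15:103366792-103367041, both on the minus strand.
Itga8: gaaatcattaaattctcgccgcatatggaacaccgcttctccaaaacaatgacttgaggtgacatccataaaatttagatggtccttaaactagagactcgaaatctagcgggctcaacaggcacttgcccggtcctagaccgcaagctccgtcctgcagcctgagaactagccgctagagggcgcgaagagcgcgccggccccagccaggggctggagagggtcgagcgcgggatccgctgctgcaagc
Itga5: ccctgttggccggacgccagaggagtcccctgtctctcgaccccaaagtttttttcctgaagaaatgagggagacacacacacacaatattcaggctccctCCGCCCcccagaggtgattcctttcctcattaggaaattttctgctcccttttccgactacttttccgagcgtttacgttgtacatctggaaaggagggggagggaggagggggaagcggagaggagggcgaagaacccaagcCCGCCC
The letters searched, on both strands, were AATCCACA for FOXH1, CAGAC for SMAD, GGGCGG for the GC box and TATAAA for the TATA box. The *Itga5* stretch held 2 GC boxes and the *Itga8* stretch held none of these letters. Of 32851 mouse promoters of this length, 0.718% held the FOXH1 letters, 42.2% the SMAD letters, 32.7% the GC box and 12.4% the TATA box. Entries were found for 7 of the 10 genes, and those for *Fn1*, *Itga6* and *Itgb3* were missing. Among the 7, SMAD letters were in *Itga4*, *Itgb1* and *Itgb8*, and the GC box in *Itga4*, *Itga5*, *Itgb1* and *Itgb5*. A match is a description of the letters in this window and not a binding site.

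*Itgav*, at chromosome 2, 83724397 to 83806916 on the plus strand, encodes αv, the partner of β1, β3, β5, β6 and β8. Normalised read counts were 114 (left) and 84.2 (right) in embryo L29-3, 98.4 against 76.8 in L43-5, 73.2 against 73.6 in L46-8, and 80.5 against 79.8 in L49-3. The left was clearly higher in L29-3 and L43-5, and the sides were alike in the other two embryos. The log2 fold change was 0.23 (SE 0.135, 95% confidence interval -0.07 to 0.52, unadjusted p 0.12 in edgeR), so that neither an equal level nor a difference of about the size seen for *Itga5* lies outside its interval.

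*Itga4*, at chromosome 2, 79255426 to 79333123 on the plus strand, encodes the alpha chain of α4β1 and α4β7 and was the scarcest of the 10 genes. It had 11 reads (left) and 7 (right) in embryo L29-3, 21 against 21 in L43-5, 15 against 15 in L46-8, and 4 against 6 in L49-3. The direction differed between embryos, the log2 ratio being above 0 in 2 and below 0 in the other 2, and the spread over the 8 libraries, a coefficient of variation of 34.8%, was close to the 30.4% that counting alone gives. In the fit with no filter its log2 fold change was -0.16 (SE 0.369, unadjusted p 0.665 in edgeR), so that a left-right difference was not detectable at this depth.

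The laminin receptor chain *Itga6*, at chromosome 2, 71745616 to 71858416 on the plus strand, had normalised read counts of 288 (left) and 256 (right) in embryo L29-3, 259 against 252 in L43-5, 277 against 208 in L46-8, and 232 against 248 in L49-3. The left was higher in 3 embryos and lower in L49-3. Its log2 fold change of 0.13 (SE 0.0921, 95% confidence interval -0.07 to 0.33, unadjusted p 0.174 in edgeR) did not pass the threshold.

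*Itgb1*, at chromosome 8, 128685654 to 128733200 on the plus strand, encodes the beta chain shared by α4, α5, α6, α8, αv and others. Normalised read counts were 732 (left) and 730.4 (right) in embryo L29-3, 754 against 705 in L43-5, 801 against 667 in L46-8, and 574 against 615 in L49-3. The sides overlapped and L49-3 was the lowest embryo on both sides. The log2 fold change was 0.07 (SE 0.0712, 95% confidence interval -0.09 to 0.22, unadjusted p 0.351 in edgeR), the interval leaving room for a change to the left of at most 0.22.

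*Itgb5*, at chromosome 16, 33829665 to 33949338 on the plus strand, encodes a beta chain that pairs with αv, and had the smallest spread of the 10 genes. Its normalised read counts were 169 (left) and 141 (right) in embryo L29-3, 171 against 153 in L43-5, 149.8 against 166 in L46-8, and 152 against 159 in L49-3. The left was higher in L29-3 and L43-5, and lower in the remaining embryos. The coefficient of variation over the 8 libraries was 6.69%, no more than the 8.2% expected from counting alone, and the log2 fold change was 0.06 (SE 0.106, 95% confidence interval -0.17 to 0.29, unadjusted p 0.592 in edgeR).

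*Itgb3*, at chromosome 11, 104608000 to 104670476 on the plus strand, encodes the beta chain of αvβ3 and of the platelet receptor αIIbβ3. It had normalised read counts of 36.5 (left) and 21.0 (right) in embryo L29-3, 29.99 against 25.1 in L43-5, 21.2 against 14.0 in L46-8, and 9.29 against 11.6 in L49-3. The left was higher in 3 embryos, and both sides of L49-3 were below all other libraries. The log2 fold change of 0.42 had a wide interval (SE 0.261, 95% confidence interval -0.15 to 0.99, unadjusted p 0.134 in edgeR). The gene passed the filter through 3 left and 2 right libraries. The summed level of 8 platelet and megakaryocyte markers, of which *Gp9* and *Treml1* were at 0 and *Itga2b*, the alpha partner of *Itgb3* in platelets, gave most of the reads, ranged from 9.45 to 13.7 CPM on the left and from 3.36 to 8.82 CPM on the right. L49-3, the lowest embryo for *Itgb3*, was not the lowest for these markers, and their part in the *Itgb3* values was not tested.

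*Itgb8*, at chromosome 12, 119158022 to 119238802 on the minus strand, encodes the beta chain of αvβ8, an integrin best known for releasing active TGFβ. It had 20 reads (left) and 9 (right) in embryo L29-3, 26 against 22 in L43-5, 15 against 6 in L46-8, and 9 against 5 in L49-3. After normalisation these were 16.2 and 11.1, 17.0 and 11.7, 12.2 and 7.61, and 13.9 and 8.31. The left libraries were all above the right ones, and the ratio was alike in the 4 embryos, 0.51, 0.50, 0.61 and 0.68 on the log2 scale. The coefficient of variation over the 8 libraries, both sides together, was 27.4%, where counting alone gives 28.7%. In the fit with no filter the log2 fold change was 0.61 (SE 0.353) with an unadjusted p of 0.0859 in edgeR. *Itga8* and *Itgb8* were thus the 2 of 10 genes with sides that did not overlap, against 1.95% of the 23873 genes with at least 1 count.

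**Figure D3:**
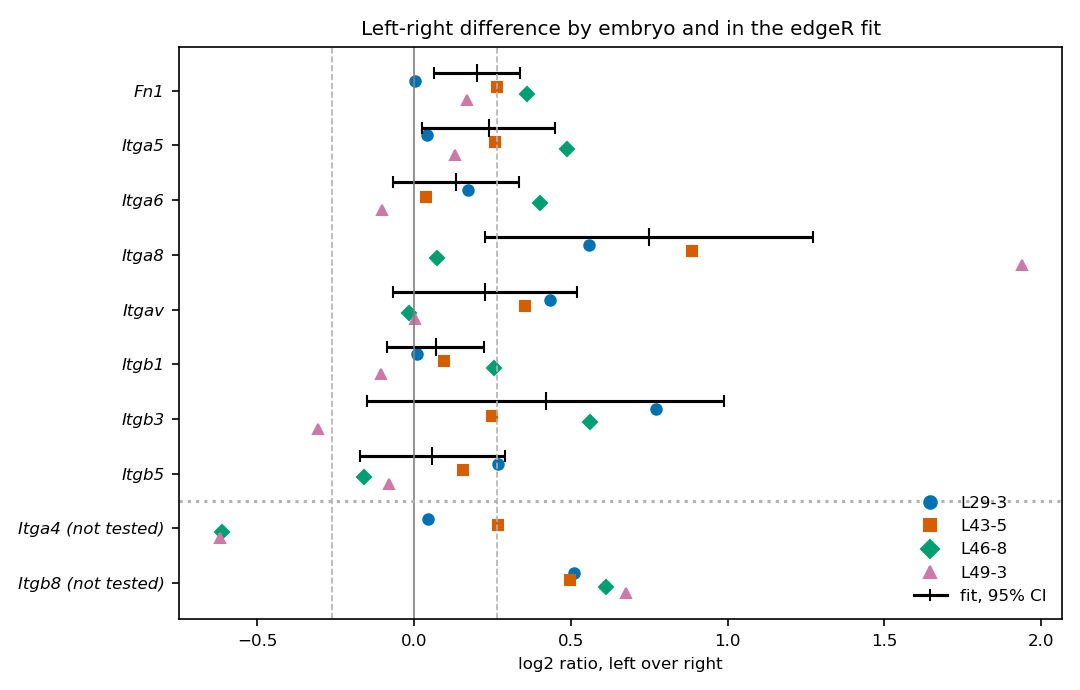
Log2 ratio of left to right (horizontal axis) of the 10 genes in each of the 4 embryos (coloured points), and the log2 fold change of the edgeR fit with its 95% confidence interval (black) for the 8 genes tested; the dashed lines mark a fold of 1.2. Only the intervals of *Fn1*, *Itga5* and *Itga8* lie wholly above 0.

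The 4 embryos did not contribute alike. The median log2 ratio of the 8 tested genes was 0.22 (L29-3), 0.25 (L43-5), 0.31 (L46-8) and -0.04 (L49-3), where the medians of all genes tested were between -0.00 and 0.01. In L29-3 and L43-5 all 8 genes were higher on the left after TMM normalisation, in L46-8 there were 6, and in L49-3 there were 4. *Fn1* and *Itgb1* were nearly equal between the sides in L29-3, with log2 ratios of 0.003 and 0.009. Of all 9744 genes tested, 4864 (L29-3), 4975 (L43-5), 4870 (L46-8) and 4815 (L49-3) were higher on the left. *Itga8* had its largest ratio in L49-3 and its smallest in L46-8, the reverse of *Itga6* and *Itgb1*. Differences between embryos, taken over both sides, had an unadjusted p of 0.0178 for *Itgb3*, 0.0376 for *Itgb1* and 0.0638 for *Fn1*, and an adjusted p under 0.05 for 0 of the 8 genes by edgeR with the Benjamini-Hochberg adjustment (smallest 0.352, with 2 at an unadjusted p of at most 0.05), against 0.174% of all genes tested.

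Levels of different genes were compared as TMM-normalised CPM per kb of exon, the exons of all annotated transcripts of a gene being merged. On this scale *Fn1* was the highest, with a level of 180 ± 20.9 CPM per kb (SD, n = 8), and only 2.31% of the genes tested were above it. *Itgb1* had 90.2 ± 9.55, *Itgb5* 23.4 ± 1.61, *Itga5* 20.5 ± 3.01 and *Itga6* 14.8 ± 1.44 CPM per kb. *Itgav* followed with 4.18 ± 0.693, *Itga8* with 3.31 ± 1.16 and *Itgb3* with 1.89 ± 0.837, and *Itgb8* with 0.585 ± 0.16 and *Itga4* with 0.425 ± 0.148 CPM per kb closed the order. Neighbours in this order kept it in all 8 libraries, except that *Itgb5* was above *Itga5* in 7, *Itgav* above *Itga8* in 5 and *Itgb8* above *Itga4* in 7. The order of these 3 pairs thus varied between libraries, and it was not tested. Per kb of the longest transcript, *Itgb5* was above *Itga5* in 6 libraries, *Itgav* above *Itga8* in 8 and *Itgb8* above *Itga4* in 6.

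The order of *Itga5* and *Itga6* depended on the length used. Per kb of the longest transcript, *Itga6* had 30.9 ± 3.02 and *Itga5* 22.9 ± 3.36 CPM per kb, and *Itga5* was above *Itga6* in 0 of the 8 libraries instead of 8. The merged exons of *Itga6* are 9.03 kb long and its longest transcript 4.31 kb, whereas *Itga5* has 4.93 and 4.42 kb. Which of both alpha chains was the more abundant therefore cannot be told from counts per gene, while *Fn1* and *Itgb1* kept the top of the order with either length.

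**Figure D4:**
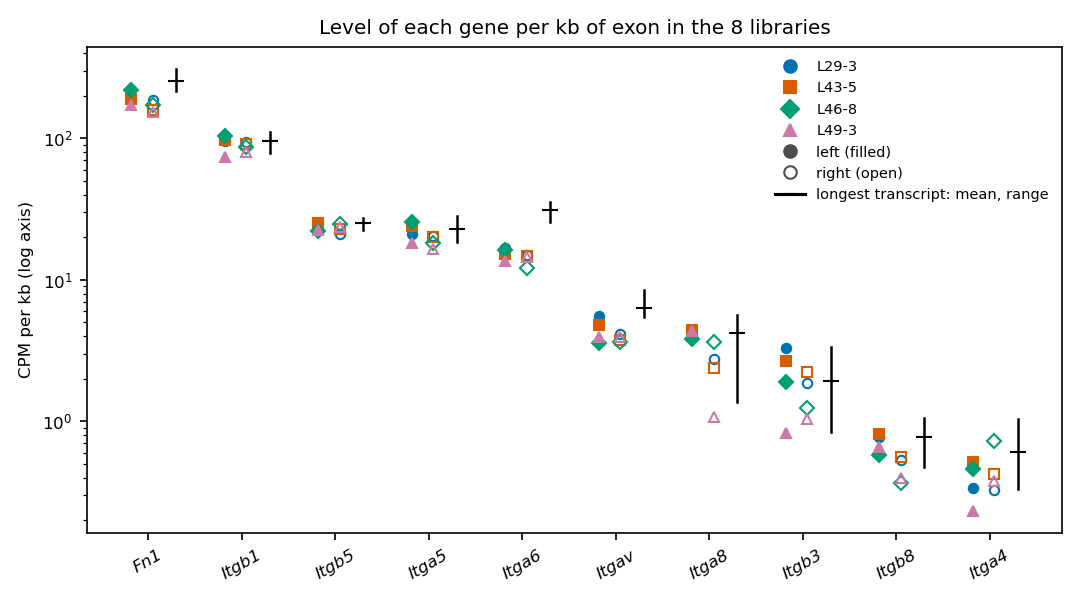
TMM-normalised CPM per kb of merged exons (vertical axis, log scale) of the 10 genes in the 8 libraries, filled for left and open for right, with the mean and range per kb of the longest transcript in black. *Fn1* and *Itgb1* lie above the other 8 genes in every library, and *Itga6* moves above *Itga5* and *Itgb5* with the longest transcript.

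Among the beta chains *Itgb1* dominated, with 75.6% to 80.7% of the summed level of *Itgb1*, *Itgb3*, *Itgb5* and *Itgb8* in each library. *Itga5* and *Itga6* together made 78.9% to 85.3% of the summed level of the 5 alpha chains *Itga4*, *Itga5*, *Itga6*, *Itga8* and *Itgav*. *Itgb1* was 1.84 to 2.26 times the sum of these alpha chains, and with *Itga3* and *Itga9*, other partners of β1 that were well detected, it was 0.891 to 1.15 times the sum of 7. The level of *Fn1* per kb was 1.74 to 2.32 times that of *Itgb1* and 7.88 to 9.48 times that of *Itga5*, and 0.177% to 0.256% of all counts of a library fell on *Fn1*. These ratios are per kb of merged exons and depend on the length used. Per kb of the longest transcript, *Itgb1* was 1.31 to 1.63 times the sum of the 5 alpha chains. On that length *Fn1* was 2.28 to 3.05 times *Itgb1*. Transcript levels say nothing of the amount of each chain on the cell surface.

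The 5 genes with the smallest SD over the 8 libraries of the log2 ratio to *Fn1* were *Trim25*, *Tns2*, *Herc2*, *Ccdc8* and *Mdm4*. This SD was 0.0599 for *Trim25*, 0.0727 for *Tns2*, a tensin that links integrins to actin, 0.0744 for *Herc2*, 0.0758 for *Ccdc8* and 0.0761 for *Mdm4*, against a median of 0.262 over all genes tested. Counting error alone gives these ratios an SD of 0.252, 0.219, 0.104, 0.137 and 0.102 in the same order, more than was measured, so that these genes are the lowest of many noisy values and their likeness to *Fn1* is not established. Of the integrin genes, *Itga5* was nearest with 0.106, at rank 67, followed by *Itgb1* with 0.121 at rank 161 and *Itga6* with 0.155 at rank 677. Counting alone gives 0.113 for *Itga5*, 0.0624 for *Itgb1* and 0.098 for *Itga6*. *Itga8* with 0.572 and *Itgb3* with 0.599 were far down the order, and for these scarcer genes counting alone gives 0.256 and 0.383. These are descriptions of 8 libraries that share embryos and depth.

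The comparison was extended to 3 lists of genes of the wider integrin machinery. Of 17 other integrin subunit genes only *Itga3* and *Itga9* were tested, and both were higher on the left. *Itga9*, whose product binds a spliced segment of fibronectin, tenascin-C and EMILIN1, was past the threshold of the study. Its normalised read counts were 309.7 (left) and 289.7 (right) in embryo L29-3, 314 against 265 in L43-5, 395 against 284 in L46-8, and 336 against 198 in L49-3. All 4 left libraries were above the right ones, against sides without overlap in 2.51% of all genes tested. The log2 fold change was 0.37 (SE 0.0989, 95% confidence interval 0.15 to 0.58), and the edgeR p was 0.00299 unadjusted and 0.987 with the Benjamini-Hochberg adjustment. In the fit with no filter the adjusted p of *Itga9* was 0.0303 in edgeR, with the same limit as that of *Fn1* in this fit. The leukocyte subunits *Itgam* and *Itgax* were at 0 in all libraries, and *Itgb6* had 2 reads in all.

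Of 26 other ligands and matrix partners, 20 were tested, 16 were higher on the left and 4 lower, 1 passed the threshold, and the median log2 fold change was 0.15. This was *Col3a1*, a fibrillar collagen, with 0.59 in the fit but -0.30 in L29-3 against 0.61, 1.496 and 1.33 in L43-5, L46-8 and L49-3, which was lower on the left in 1 embryo. *Col3a1* was no longer past the threshold without L43-5, without L46-8, without L49-3, or in the edgeR and limma-voom fits without the block. *Npnt*, which encodes nephronectin, a ligand of α8β1, had a log2 fold change of 0.07 (unadjusted p 0.575 in edgeR). Of 39 cytoplasmic adhesion proteins, 33 were tested, 25 were higher on the left and 8 lower, with a median of 0.08. *Parvb*, which encodes β-parvin, a partner of integrin-linked kinase, was the 1 gene of that list past the threshold, and it fell on the left. Its normalised read counts were 117 (left) and 184 (right) in embryo L29-3, 131 against 148 in L43-5, 123 against 139.6 in L46-8, and 101 against 111 in L49-3. The left was lower in all 4 embryos, most in L29-3, although the ranges of the sides overlapped. The log2 fold change of *Parvb* was -0.30 (SE 0.118, 95% confidence interval -0.56 to -0.05), and the unadjusted p was 0.0247, with an adjusted p in edgeR of 0.987. Without L29-3 it was -0.17, and the unadjusted p in edgeR was 0.2. In total, 3 of the 55 tested genes of these lists passed the threshold, beside the 3.05% of all genes.

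**Figure D5:**
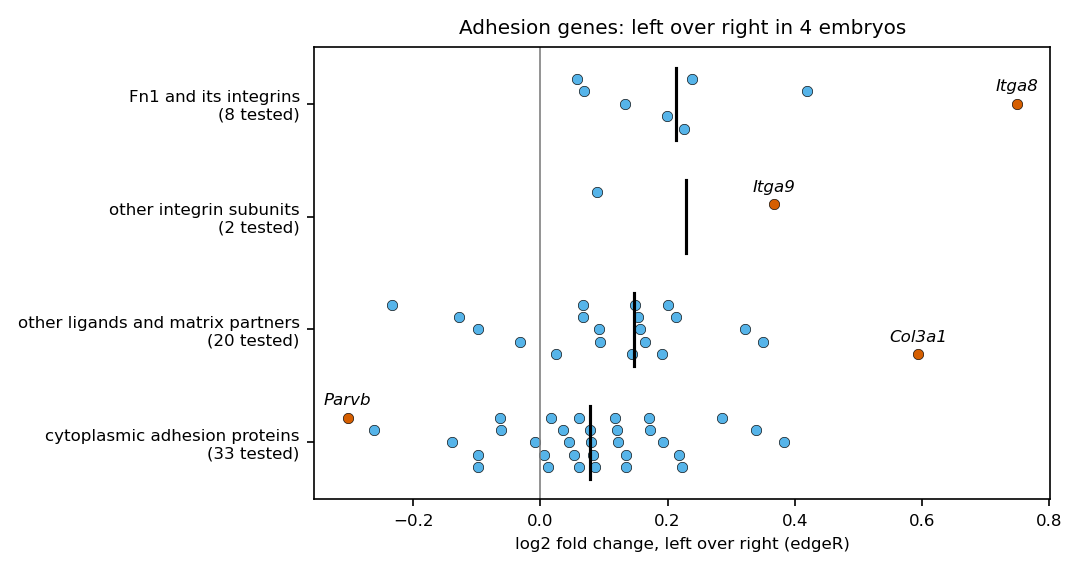
Log2 fold change of left over right in the edgeR fit (horizontal axis) of the tested genes of 4 groups, each point a gene, in orange if past the threshold of the study, with the median of each group as a black line. The medians are 0.21, 0.23, 0.15 and 0.08, against -0.00 for all genes tested.

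Some counts may be shared with other genes, because the strand setting used for counting is not given in the sources used here. *Fn1* shares 292 exon bases with *Apol7d* on the other strand, *Itga8* shares 372 with *E030013I19Rik*, *Itgav* shares 634 with *Gm13684*, and *Itga4* shares 1124 with *Cerkl*. These neighbours had 8, 10, 0 and 0 reads over the 8 libraries. Near-identical stretches linked *Itga6* to *Gm29397*, which had 51 reads, and *Itgb5* to *Gm38317*, which had 42.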

How the data were processed

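Paired-end poly-A RNA libraries were made from 15 ng of RNA of each heart field. The authors aligned the reads to GRCm38 with HISAT2, removed duplicates and counted reads per gene with featureCounts; versions are not given in the sources used here. The deposited values are raw counts, not normalized, and duplicate removal lowered the depth of every value. TMM normalization and edgeR 4.0.16 (R 4.3.3) quasi-likelihood tests, with embryo as a block, were applied to the 9744 genes that passed the filter, with Benjamini-Hochberg adjustment. DESeq2 1.42.0 and limma 3.58.1 (voom) were alternatives, as were other scalings, no filter, a minimum of 10 counts in each library, no block and each embryo left out. These 3 tools were checked on simulated data. Sides were paired as both come from 1 animal; their deviations from the side means correlated at 0.164, 0.194, -0.0107 and 0.444, against -0.389 to 0.257 between sides of different embryos. Near-identical transcripts were found with blastn 2.17.0 (at least 90% identity over 100 bases). Members and lists were chosen with earlier results of these data known. Genes named were the 10 members, list genes past the study's threshold with the same direction in all 4 embryos, *Lefty2*, and the 5 genes most like *Fn1*; *Col3a1*, *Npnt*, *Ilk* and the genes at or near 0 were named after their values were seen. The p-values of the main fit rest on the spread between these embryos. In this fit edgeR draws the variance of each gene towards that of the other genes tested. The p-value of a gene in the main fit therefore does not rest on its own spread alone. Those of the fit with no filter are the p-values of a normal distribution for the fold change over its SE. The spread of a single gene between the embryos therefore has little weight in them. The fits with no block leave the pairing out. The other data of the study were not analysed here.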

Additional observations from a re-analysis of the deposited data

Results flagged for a closer look

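The log2 ratio of left to right of *Parvb* in L29-3 was -0.65, against -0.18, -0.19 and -0.15 in L43-5, L46-8 and L49-3, so that this embryo lay far from the others. The gap to the nearest embryo was 0.924 of the whole range, above Dixon's critical value for 4 samples. It was the 1 such case among 36 sets of 4 values that were checked, and chance gives about 1 in 20.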

How the results depend on the processing

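Of 118 log2 fold changes recomputed under the alternatives for the 8 members tested, *Itga9* and *Parvb*, 117 kept their direction, 113 also kept their side of the study's threshold, and 1 reversed, *Itgb5* without L29-3 (-0.0094, and up to 0.13 without another embryo). The number of members past the threshold was 1, 0 with at least 10 counts in every library, where *Itga8* and *Itgb3* were no longer tested, and from 1 to 3 when an embryo was left out (3 without L29-3, with *Fn1* at 0.27 and *Itga5* at 0.31). In those fits 2 to 3 of them had an unadjusted p not above 0.05. With no filter, 1 gene, *Fn1*, had an adjusted p under 0.05 in edgeR (0.00437), against 0 in the other alternatives where the adjusted p of *Fn1* was 0.863 or more. Genes of the 3 lists past the threshold were 3, 8 with no filter, and 2 to 6 without an embryo (6 without L29-3). The shares of all genes called in these alternative fits are not given here. The counts of members and list genes in them therefore cannot be set against all genes. In the fit without the replicate block, 1 member passed the threshold, and *Itga5* had an unadjusted p of 0.0542 in edgeR; no call at the threshold of the study changed among the members. With DESeq2 the unadjusted p of *Parvb* was 0.12 and that of *Itga5* was 0.156. With the longest transcript the level of *Fn1* was 252 CPM per kb instead of 180, and *Itga5* was above *Itga6* in 0% instead of 100% of libraries. The causes of these changes were not tested. Scaling moved the median of all genes by less than 0.02. Depth limits *Itga4*, *Itgb8*, *Itgb3* and *Itga8* most, with at most 95 reads in a library.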

Other observations

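*Ilk*, which encodes integrin-linked kinase, the scaffold that joins β1 integrin to the parvins, had 41 reads over the 8 libraries, whereas the genes for its partners in this complex, *Lims1*, *Parva* and *Parvb*, had 1530, 1740 and 1165. *Ilk* shares 2106 of its 2744 exon bases (76.7%) with *Taf10* and 355 (12.9%) with *Rrp8*, both on the other strand, and these had 1624 and 867 reads. The part of these shared bases in the count of *Ilk* was not tested.

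The genes for laminin chains and for the actin-binding partners of integrins were well detected. Per kb of merged exons *Lamc1* had a level of 37.4 CPM and *Lamb1* 29.8 CPM, and *Flna*, which encodes filamin A, had 138 CPM, next to 180 CPM for *Fn1*. *Lamb1* had a log2 fold change of 0.19 to the left with an unadjusted p of 0.013 in edgeR, under the fold threshold. These genes were chosen after their values were seen.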
